A study of Mus musculus with 24 samples.

Results

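The genes described here are those of the glucocorticoid system of the hippocampus, namely the genes of both receptors, Nr3c1 (glucocorticoid receptor) and Nr3c2 (mineralocorticoid receptor), and 8 genes that glucocorticoids are known to induce, Fkbp5, Sgk1, Tsc22d3, Per1, Zbtb16, Sult1a1, Plin4 and Cdkn1a. They were chosen by name, as the rows that carry these symbols in each count file, and are 10 of the 49568 symbols listed. RNA was taken from the hippocampus of male mice aged 21 to 23 months on a C57-Bl/6J background that had not taken part in behavioural experiments, with 1 library per mouse and 6 mice in each of 4 groups. WTSH and WTEE were wild-type mice in standard housing and in an enriched environment, and KDSH and KDEE were MSK1 kinase-dead (MSK1 KD) mice in the same housings. MSK1 KD mice are homozygous for a point mutation in the endogenous gene that inactivates the N-terminal kinase domain, in all cells and throughout life, and both genotypes were bred as separate lines. Enriched mice were moved at the age of 18 months to rat cages fitted with a wheel to run on, a ladder, toys and tubes. These cages held more males each than the standard cages, and new toys were added every week. The labels do not say which mice shared a cage, and the time of day at which mice were killed is not given in the sources used here. The study left out WTSH mice 4 and 7 and KDSH mouse 6, so 4 WTSH, 6 WTEE, 5 KDSH and 6 KDEE libraries entered the comparisons, and the other 3 are given apart.

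Glucocorticoids, chiefly corticosterone in the mouse, are steroid hormones released by the adrenal gland with the daily rhythm and under stress. They cross the cell membrane and bind the products of Nr3c1 and Nr3c2, which are held by HSP90 and its co-chaperones until the hormone arrives, and then move to the nucleus and act on genes near palindromic DNA elements. The hippocampus is rich in both receptors, of which the mineralocorticoid receptor binds corticosterone more tightly. Several induced genes feed back on the pathway or on cell metabolism. Fkbp5 encodes a co-chaperone that lowers the receptor's affinity for hormone, Sgk1 a kinase that controls ion channels and transporters, Tsc22d3 the leucine zipper protein GILZ, Per1 a component of the circadian clock, Zbtb16 the zinc finger repressor PLZF, Sult1a1 a phenol sulfotransferase, Plin4 a protein that coats lipid droplets, and Cdkn1a the cell cycle inhibitor p21.

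Promoter sequences were read from RefSeq (GRCm38.p6) to show where the genes carry the receptors' recognition letters, for windows of 250 bases before and 50 bases after each start site. Of the 10 genes 8 were matched, with 17 windows, and Nr3c1 and Zbtb16 were not. The matched genes held 1 to 6 windows each, with 6 for Sgk1. A count of genes below is therefore not on the same base as a share of all windows. The receptors' palindrome, searched as GNACA followed by any 3 bases and TGTNC, reads the same on both strands and was present in 156 of all 32851 windows (0.475%), and among the 8 genes only in a window of Sgk1, at chr10:21993678-21993738 on the plus strand with the palindrome starting 188 bases before the start site. A single arm, AGAACA or its reverse complement, was present in 19% of all windows and in windows of 3 of the 8 genes, Sgk1, Tsc22d3 and Sult1a1, and both arms of the Sgk1 palindrome count among these matches. The clock's E-box, CACGTG, which is its own reverse complement, was present in 7.15% of all windows and in windows of 3 of the 8 genes, Fkbp5, Sgk1 and Per1. The cAMP element TGACGTCA was present in 1.79% of all windows and in 0 of those of the 8 genes. The stretches below show the palindrome of Sgk1, the single arm of Tsc22d3 at chrX:140600678-140600731 (minus strand), and the E-boxes of Per1 at chr11:69098759-69098812 (plus strand) and Fkbp5 at chr17:28486289-28486342 (minus strand), with the matched letters in capitals.
Sgk1: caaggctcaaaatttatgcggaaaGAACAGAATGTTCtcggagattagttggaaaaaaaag
Tsc22d3: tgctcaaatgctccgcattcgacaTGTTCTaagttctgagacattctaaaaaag
Per1: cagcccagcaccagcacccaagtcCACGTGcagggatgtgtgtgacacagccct
Fkbp5: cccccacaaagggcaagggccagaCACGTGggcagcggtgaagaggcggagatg
A match is a run of letters and does not show that a receptor or clock protein binds there in these mice.

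The 21 libraries held 27410239 to 71907130 counts on genes (median 47549989), and the 3 left-out libraries 15800187 to 39585901. Counts are given as normalised counts, scaled by TMM factors to the mean library of 48105448 counts, and levels are compared between genes only as RPKM, per kilobase of exon. Structural RNA genes took 0.0331% to 2.48% of the counts on genes in the 21 libraries and 5.46% to 22.7% in the left-out ones. The 8 neuron markers summed to 280077 to 357060 normalised counts in each of the 21 mice. Some libraries also held many counts of genes typical of choroid plexus or pituitary, and the source of this RNA was not tested. The 7 choroid plexus markers summed to between 1229 and 465968 normalised counts, and the pituitary hormone gene Gh stood at 6164 in KDSH mouse 8 and at 17281 in left-out KDSH mouse 6. Transcripts of Rps6ka5, the gene of MSK1, averaged 1120 ± 101 normalised counts in WTSH (SD, n = 4), 1044 ± 190 in WTEE (n = 6), 1159 ± 21.9 in KDSH (n = 5) and 1141 ± 27.5 in KDEE (n = 6), and since the mutation is a single base change this level does not check the genotype labels. In bulk tissue, fewer cells of a type cannot be told apart from less RNA per cell.

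All 10 genes were expressed well above the filter on low counts and all 10 were tested. The mineralocorticoid receptor gene stood highest per length, with Nr3c2 at 23.6 ± 2.99 RPKM (SD, n = 21 mice) and the glucocorticoid receptor gene Nr3c1 at 11.8 ± 1.04 RPKM. Among the induced genes the mean RPKM ran from 16.4 ± 2.95 for Per1, 13.8 ± 2.95 for Sgk1, 12.5 ± 2.46 for Tsc22d3 and 10.7 ± 3.05 for Zbtb16 to 5.67 ± 0.947 for Fkbp5, 4.59 ± 1.24 for Sult1a1, 2.60 ± 0.613 for Cdkn1a and 1.15 ± 0.759 for Plin4. From Per1 down to Zbtb16 the means of neighbours in that order differed by less than the larger of their SDs, as did those of Fkbp5 and Sult1a1. Between mice of the same group the receptor genes varied least, with a within-group SD of 0.12 (Nr3c1) and 0.21 (Nr3c2) on the log2 scale. Plin4 varied most, with an SD of 0.72, larger than that of 95.8% of all genes tested, and Zbtb16 followed with 0.46, larger than that of 82.6%. Among genes with a mean of at least 1000 normalised counts, 44.5% had a smaller SD than Nr3c1, 82.3% than Nr3c2 and 99.0% than Zbtb16. This share was 95.3% for Sgk1, 94.2% for Tsc22d3, 93.2% for Per1 and 89.4% for Fkbp5. For their level these genes, Nr3c2 and Zbtb16 were thus among the more variable genes. Some exon bases overlap other genes and reads there cannot be assigned without strand. These are 247 bases of Nr3c2, 273 of Cdkn1a, 61 of Sult1a1 and 17 of Plin4.

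**Figure D1:**
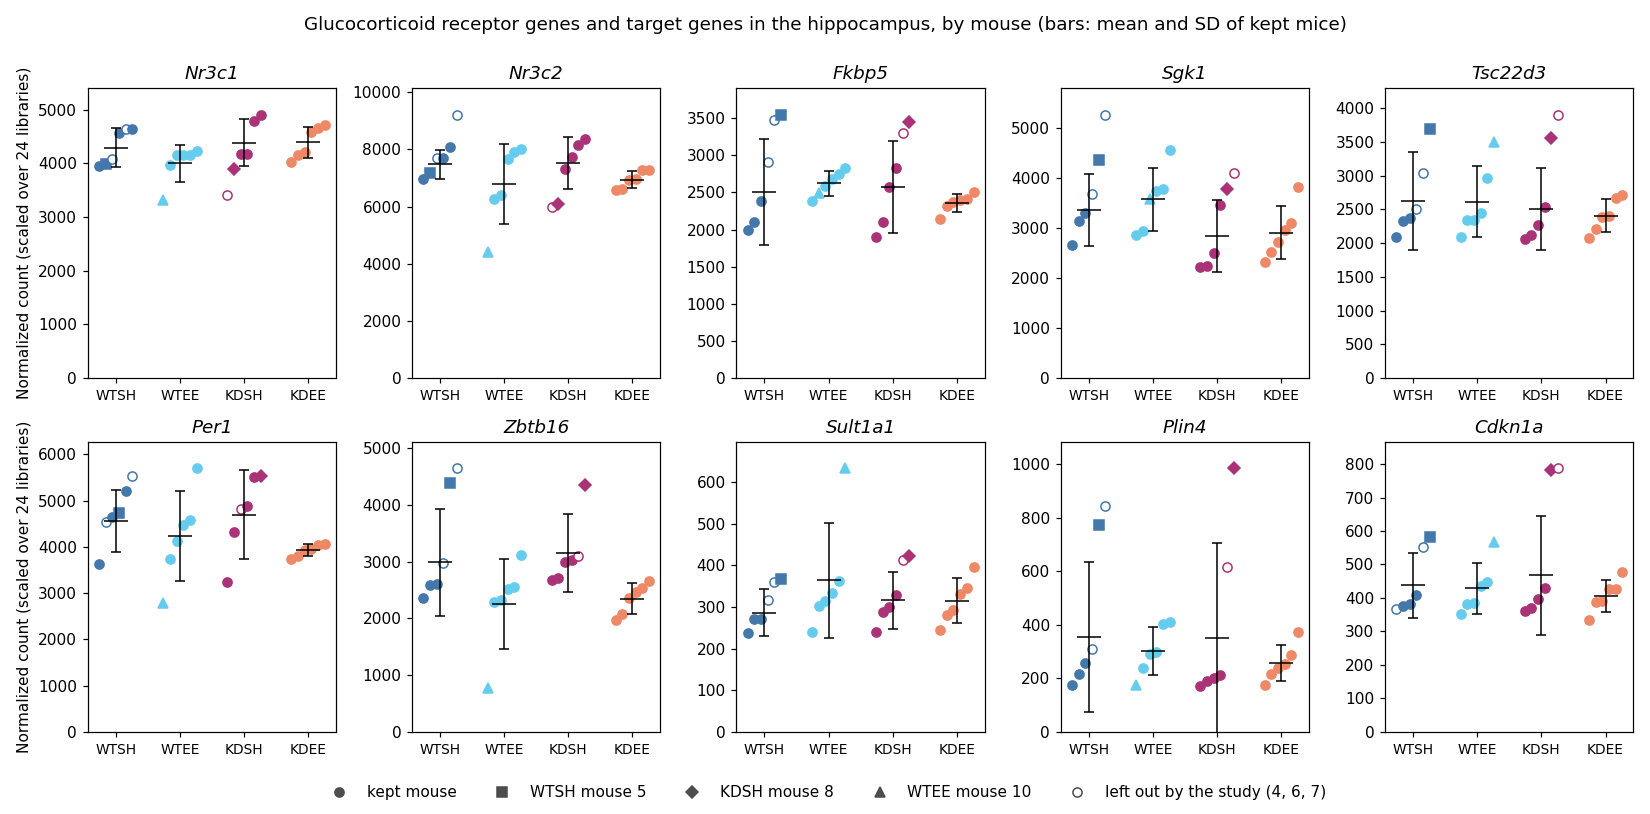
Normalised counts (scaled over 24 libraries, which puts kept mice 2.08% to 3.15% below the values printed in the text) of the 10 genes in each mouse by group, with bars for the mean and SD of the kept mice and open circles for the 3 left-out mice. WTSH mouse 5 (square) and KDSH mouse 8 (diamond) sit above the other kept mice of their groups for Fkbp5, Tsc22d3, Zbtb16 and Plin4, and WTEE mouse 10 (triangle) below those of its group for Nr3c1, Nr3c2, Per1 and Zbtb16.

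The receptor genes overlapped between all 4 groups. Nr3c1 stood at 4086, 4103, 4764 and 4702 normalised counts in WTSH mice 2, 5, 19 and 23, and at 4292, 4302, 4017, 5030 and 4941 in KDSH mice 1, 3, 8, 18 and 24. In WTEE it ran from 3411 to 4339 (median 4265) and in KDEE from 4143 to 4852 (median 4502). The lowest of these 21 values belonged to WTEE mouse 10, and every pair of groups overlapped. Averaged over genotypes, enriched mice differed from standard-housed mice by a log2 fold change of -0.05 (SE 0.05, 95% interval -0.17 to 0.06, edgeR quasi-likelihood test, adjusted p = 0.560), and KDEE differed from WTEE by 0.13 (SE 0.07, adjusted p = 0.957).

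Nr3c2 stood at 7958, 7374, 8288 and 7163 normalised counts in WTSH mice 2, 5, 19 and 23, and at 8611, 8418, 6282, 7933 and 7525 in KDSH mice 1, 3, 8, 18 and 24. Among WTEE mice it ran from 4526 to 8235 (median 7245) and in KDEE from 6756 to 7477 (median 7157). WTEE mouse 10 was again the lowest mouse and KDSH mouse 8 the next lowest, as for Nr3c1. The change with enrichment averaged over genotypes was -0.13 (SE 0.08, 95% interval -0.30 to 0.04, edgeR adjusted p = 0.356). For both receptor genes the interval of this change lay inside the fold threshold of 0.38 on the log2 scale that the study used.

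None of the 10 genes passed an adjusted p of 0.05 with a change over 0.38 in any of the 7 comparisons, which tested each effect of housing and genotype, both averages and their interaction over 20187 genes. The same thresholds called 0% of all genes tested in each comparison by edgeR, except for 1 gene (0.00495%) between enriched and standard-housed mice averaged over genotypes, so the count of 0 among the 10 genes is that of the background. At an unadjusted p under 0.05, 0 of the 10 genes passed between WTEE and WTSH (background 6.55%), 0 between KDEE and KDSH (11.6%), 0 between KDSH and WTSH (1%), 0 between KDEE and WTEE (4.99%) and 0 for the interaction (3.26%). With genotypes averaged, 1 of 10 (Zbtb16) passed that level against 18.9% of all genes, and with housings averaged 1 of 10 (Sgk1) against 1.9%. The median change of the 10 genes was -0.07 with enrichment in WT mice and -0.13 in MSK1 KD mice, beside 0.01 and 0.00 for all genes tested. Without WTSH mouse 5 and KDSH mouse 8 these medians of the 10 genes turned to 0.17 and 0.03, and without WTEE mouse 10 as well they were 0.07 and 0.03. DESeq2, the study's own tool, also called 0 of the 10 genes in each of the 7 comparisons. Over all genes it called 118 between KDEE and WTEE, 41 for averaged enrichment, 20 for the interaction and 14 between KDEE and KDSH. These are few beside the 20187 genes tested by edgeR, so 0 of 10 is again near the background.

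**Figure D2:**
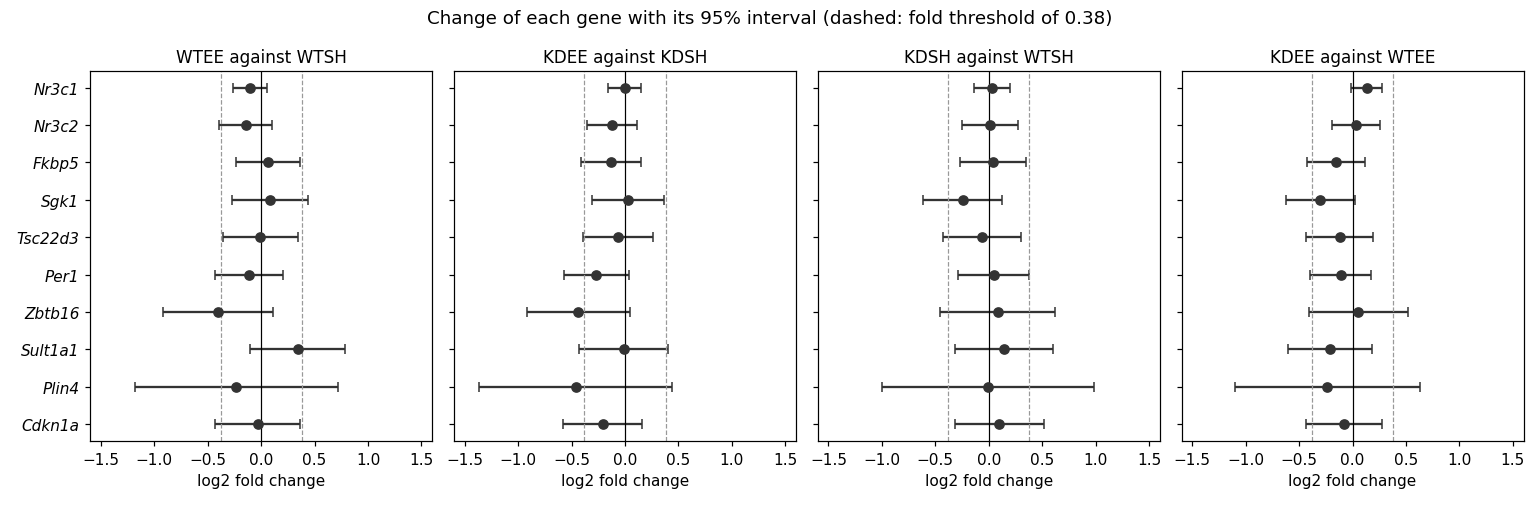
Log2 fold change of each gene (points) with its 95% interval (bars) from the edgeR fit in 4 comparisons, with the fold threshold dashed. Every interval includes 0, and those of Plin4 are the widest, from -1.18 to 0.72 between WTEE and WTSH.

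Zbtb16, whose protein PLZF represses transcription, had the largest of the 10 differences between housings averaged over genotypes. It stood at 2674, 4514, 2417 and 2679 normalised counts in WTSH mice 2, 5, 19 and 23, and at 2794, 3096, 4488, 3107 and 2765 in KDSH mice 1, 3, 8, 18 and 24. In WTEE it ran from 785 to 3219 (median 2476) and in KDEE from 2010 to 2730 (median 2482). All 5 KDSH mice lay above all 6 KDEE mice, while the WT groups overlapped. Between KDEE and KDSH the log2 fold change was -0.44 (SE 0.23, 95% interval -0.92 to 0.05, edgeR adjusted p = 0.458), and an exact two-sided permutation test of this gene alone gave p = 0.00216. It was the only 1 of the 10 genes whose KDSH and KDEE groups did not overlap, beside 1.84% of all genes tested. In the other comparisons 0 of the 10 genes had groups that did not overlap, beside 0.986% between WTEE and WTSH, 0.644% between KDSH and WTSH and 0.624% between KDEE and WTEE.

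Averaged over genotypes, Zbtb16 differed between enriched and standard-housed mice by -0.42 (SE 0.17, 95% interval -0.77 to -0.07, edgeR adjusted p = 0.232). Without WTSH mouse 5 and KDSH mouse 8 this difference was -0.22 (edgeR adjusted p = 0.531), and without WTEE mouse 10 as well it was -0.14 (adjusted p = 0.403), neither past the unadjusted level. Without these 3 mice the difference in WT mice was 0.02 (edgeR adjusted p = 0.9998), against -0.41 with them. With the choroid plexus markers as a covariate it was -0.31 (adjusted p = 0.667). The direction of the averaged difference was the same under all 32 alternatives, with values between -0.48 and -0.14. So was that of the difference between KDEE and KDSH, with values between -0.49 and -0.23. Its smallest unadjusted edgeR p, 0.00429, came without the 3 mice, and no fit gave it an adjusted p under 0.122. The interaction without the 3 mice had an unadjusted edgeR p of 0.0343 (adjusted p = 0.946). Some markers of other cells differed with housing before adjustment, and 0 were called. At an unadjusted p under 0.05, passed by 18.9% of all genes, 6 of the 7 choroid plexus markers (median log2 fold change 2.32), all 5 blood markers (1.46) and 6 of the 8 oligodendrocyte markers (0.25) were higher in enriched mice. For choroid plexus, all 7 passed between KDEE and KDSH but 0 between WTEE and WTSH. Their median sum was 3543 in WTSH and 3589 in WTEE, and the highest mice reached 211020 and 285642. The part of the blood and oligodendrocyte markers in the difference of Zbtb16 was not tested.

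Sgk1, a kinase gene induced by both receptors, was the gene with the smallest p for genotype. It stood at 2737, 4483, 3217 and 3399 normalised counts in WTSH mice 2, 5, 19 and 23, and at 2292, 3558, 3895, 2302 and 2564 in KDSH mice 1, 3, 8, 18 and 24. In WTEE it ran from 2926 to 4710 (median 3740) and in KDEE from 2377 to 3905 (median 2899). The groups overlapped within each housing. With housings averaged, MSK1 KD mice differed from WT mice by -0.27 (SE 0.12, 95% interval -0.52 to -0.03), with an edgeR adjusted p over all genes of 0.9996. Without WTSH mouse 5 and KDSH mouse 8 the difference was -0.26, and over all 24 libraries it was -0.29 (edgeR adjusted p = 0.885), while without WTSH mouse 5 alone it was -0.20 and did not pass the unadjusted level. The change with enrichment averaged over genotypes was 0.05 (SE 0.12, edgeR adjusted p = 0.807), and -0.07 over all 24 libraries.

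Fkbp5, the co-chaperone gene often used as a readout of receptor activity, stood at 2456, 3647, 2155 and 2061 normalised counts in WTSH mice 2, 5, 19 and 23, and at 2649, 2926, 3562, 1945 and 2170 in KDSH mice 1, 3, 8, 18 and 24. WTEE values ran from 2448 to 2902 (median 2692) and in KDEE from 2200 to 2578 (median 2450). The SD was 731 (WTSH) and 639 (KDSH) normalised counts in the standard-housed groups against 172 (WTEE) and 126 (KDEE). The 2 highest mice were WTSH mouse 5 and KDSH mouse 8. Apart from mouse 5 the WTSH mice ran only from 2061 to 2456, and the difference in spread was not tested. The change with enrichment averaged over genotypes was -0.04 (SE 0.10, edgeR adjusted p = 0.853). Without these 2 mice it was 0.14 (edgeR adjusted p = 0.449), and over all 24 libraries -0.13 (adjusted p = 0.405), so the sign depended on which libraries were used. Between KDEE and WTEE the change was -0.15 (SE 0.13, edgeR adjusted p = 0.957, exact two-sided permutation p = 0.0173 for this gene alone). This p and that of Zbtb16 between KDEE and KDSH are the 2 smallest of 40 such exact tests, and the only 2 under 0.05 before any adjustment.

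Plin4, the lipid droplet gene, had low counts in most mice and high counts in a few. It stood at 223, 794, 263 and 179 normalised counts in WTSH mice 2, 5, 19 and 23, and at 208, 194, 1016, 173 and 220 in KDSH mice 1, 3, 8, 18 and 24. Its WTEE values ran from 180 to 418 (median 301) and in KDEE from 182 to 383 (median 252). KDSH mouse 8 held 5.05 times the median of the other KDSH mice, and WTSH mouse 5 held 3.56 times that of the other WTSH mice. The change with enrichment averaged over genotypes was -0.35 (SE 0.32, edgeR adjusted p = 0.528). Without those 2 mice it was 0.45 (edgeR adjusted p = 0.449), so the direction turned with 2 of the 21 libraries. Without WTEE mouse 10 as well it was 0.50, with an unadjusted edgeR p of 0.00201, the smallest of any fit. This change was 0.05 with the structural RNA share as a covariate. Over all 24 libraries it was -0.56 (edgeR adjusted p = 0.243, the smallest adjusted p of any fit).

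Tsc22d3 stood at 2397, 3799, 2147 and 2450 normalised counts in WTSH mice 2, 5, 19 and 23, and at 2183, 2615, 3669, 2321 and 2123 in KDSH mice 1, 3, 8, 18 and 24. In WTEE this gene of the anti-inflammatory protein GILZ ran from 2147 to 3599 (median 2457) and in KDEE from 2133 to 2791 (median 2445). A single mouse stood above the others in 3 of the 4 groups, namely mice 5, 10 and 8. The change with enrichment averaged over genotypes was -0.04 (SE 0.11, edgeR adjusted p = 0.875), and it turned to 0.07 without WTSH mouse 5 and to 0.15 without both WTSH mouse 5 and KDSH mouse 8.

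Cdkn1a, which is induced by p53 as well as by glucocorticoids, stood at 422, 598, 392 and 387 normalised counts in WTSH mice 2, 5, 19 and 23, and at 382, 444, 807, 369 and 408 in KDSH mice 1, 3, 8, 18 and 24. In WTEE it ran from 362 to 581 (median 422) and in KDEE from 345 to 486 (median 417). The same 3 mice were the highest of their groups. Its change with enrichment averaged over genotypes was -0.12 (SE 0.13, edgeR adjusted p = 0.598), and it turned to 0.013 without KDSH mouse 8 and to 0.10 without both KDSH mouse 8 and WTSH mouse 5 (adjusted p = 0.582).

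Per1 and Sult1a1 did not share all of this order. Per1 stood at 5378, 4869, 3723 and 4776 normalised counts in WTSH mice 2, 5, 19 and 23, at 4449, 5690, 5714, 3308 and 5035 in KDSH mice 1, 3, 8, 18 and 24, from 2855 to 5884 (median 4400) in WTEE and from 3811 to 4155 (median 4057) in KDEE. The KDEE mice were the closest together, with an SD of 134 against 695 to 1004 in the other groups, and WTEE mouse 10 was the lowest of all. Between KDEE and KDSH the change of Per1 was -0.27 (SE 0.14, edgeR adjusted p = 0.459). Sult1a1 stood at 279, 377, 279 and 244 normalised counts in WTSH mice 2, 5, 19 and 23, at 308, 298, 437, 335 and 247 in KDSH mice 1, 3, 8, 18 and 24, from 246 to 650 (median 330) in WTEE and from 251 to 404 (median 320) in KDEE. WTEE mouse 10 held the most, 2.03 times the median of the other WTEE mice, and its change with enrichment in WT mice was 0.34 (SE 0.21, edgeR adjusted p = 0.651), but 0.11 without WTEE mouse 10.

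Across genes, 3 mice stood at the edge of their own group, as its highest or lowest mouse, for 7 to 10 of the 10 genes. They were picked after their values were seen. In a small group any mouse is often at an edge by chance. WTSH was the smallest group, and the share due to chance was not computed. KDEE mouse 20, not among these 3, was the highest of its group for Nr3c1 and the lowest for Fkbp5, Sgk1, Tsc22d3, Sult1a1 and Cdkn1a. KDSH mouse 8 was the highest of its group for all 8 induced genes and the lowest for both receptor genes. WTSH mouse 5 was the highest of its group for 7 of the 8 induced genes, all but Per1, and stood above all the other 20 mice for 3 of them, Fkbp5, Tsc22d3 and Zbtb16. WTEE mouse 10 had another profile. It was the highest of its group for Tsc22d3, Sult1a1 and Cdkn1a and the lowest for Nr3c1, Nr3c2, Per1, Zbtb16 and Plin4, with Zbtb16 at 0.304 times the median of the other WTEE mice.

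The contents of these 3 libraries differed. KDSH mouse 8 held 11839 normalised counts of the 6 pituitary hormone genes, against 92.4 to 1350 in the other 20 mice, but WTSH mouse 5 held 135. In WTEE mouse 10 the choroid plexus markers summed to 255608 normalised counts and the endothelial markers to 11900, and its 8 neuron markers were the lowest of the 21 mice. WTSH mouse 5 and KDSH mouse 8 had 0.0340% and 0.0473% of their counts on structural RNA genes, both in the lowest 3 of the 21 libraries, and WTEE mouse 10 had 1.37%, the second highest. The part of these contents in the profiles of the 3 mice was not tested.

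**Figure D3:**
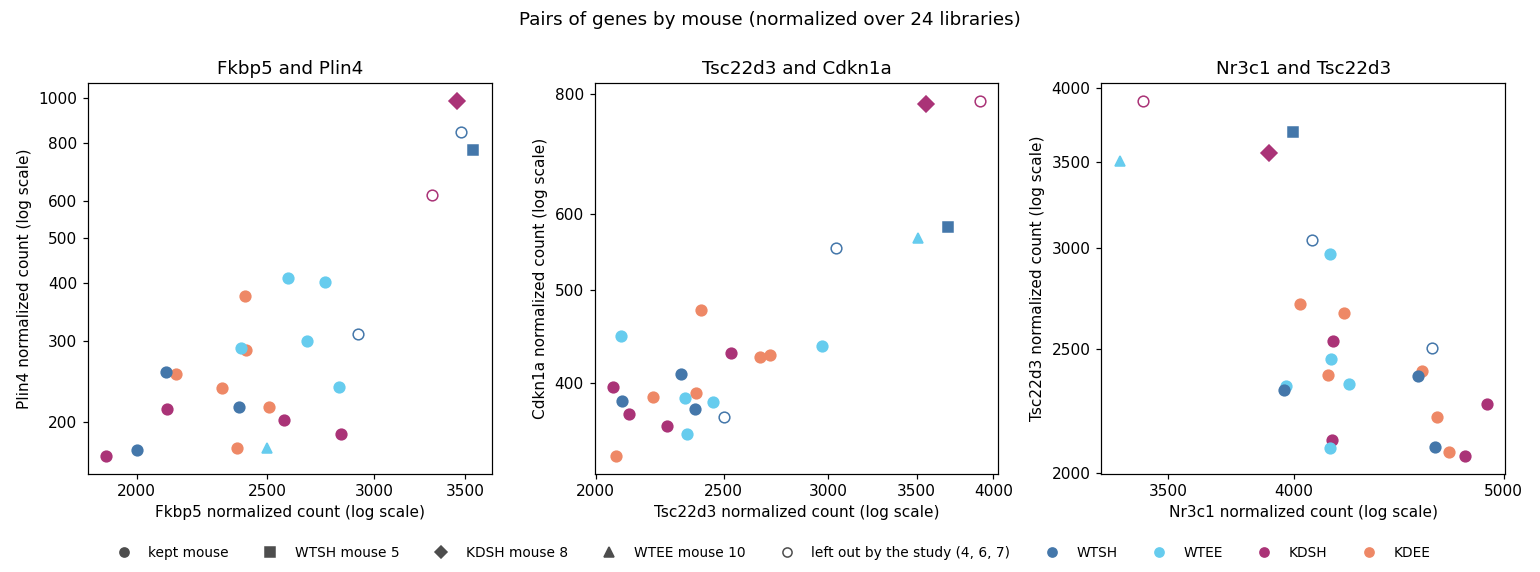
Normalised counts (log scale, scaled over 24 libraries) of 3 pairs of genes in each mouse, coloured by group, with open circles for left-out mice. Mice 5 and 8 and the left-out mice 6 and 7 lie at the upper right for Fkbp5 and Plin4, and mice 5, 8 and 10 and left-out mouse 6 at the upper right for Tsc22d3 and Cdkn1a.

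The covariation of the genes between mice was measured because the joint level of induced genes is often read as a sign of hormone state. Hormone levels of these mice were not analysed here. Pearson r was computed on log2 CPM over 21 mice after each group's mean was subtracted, with 100000 permutations within groups and adjustment over the 45 pairs. By this measure 20 of the 45 pairs had an adjusted p under 0.05, of which 13 were positive and 7 negative. All 7 negative pairs joined a receptor gene to an induced gene. Among the 28 pairs of induced genes, r was positive in 26 and the median r was 0.53, with 12 pairs passing. Among the 16 pairs of a receptor gene and an induced gene, r was negative in 13, with 7 passing.

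The closest pair was Tsc22d3 and Cdkn1a, with r = 0.85 (permutation adjusted p = 0.00945, Spearman rho = 0.71, adjusted p = 0.0227). Without the 2 mice farthest from the median of the first gene named, here KDSH 8 and WTSH 5, r was 0.69. In each pair only the first gene set which 2 mice were removed, so this value depends on the order of the genes. Only 0.0198% of all genes tested had an r with Tsc22d3 as high. Tsc22d3 and Sult1a1 had r = 0.79 (permutation adjusted p = 0.00540, rho = 0.69, adjusted p = 0.0227) and 0.76 without those 2 mice. For Sgk1 and Tsc22d3 r was 0.71 (permutation adjusted p = 0.0133, rho = 0.75, adjusted p = 0.0227) and 0.70 without KDEE 12 and KDSH 8. It was 0.51 without WTSH 5 and KDSH 8, the 2 mice farthest for Tsc22d3. These 3 pairs kept an r over 0.5 without the 2 farthest mice. Without WTSH 5, KDSH 8 and WTEE 10 together, r was 0.45 for Tsc22d3 and Cdkn1a (permutation adjusted p = 0.358), 0.53 for Tsc22d3 and Sult1a1 (adjusted p = 0.331) and 0.67 for Sgk1 and Tsc22d3 (adjusted p = 0.291).

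Other pairs had a smaller r without their 2 farthest mice. Fkbp5 and Plin4 had r = 0.74 (permutation adjusted p = 0.0383, rho = 0.46, adjusted p = 0.173) but 0.12 without KDSH 8 and WTSH 5. Nr3c1 and Nr3c2 had r = 0.60 (permutation adjusted p = 0.0448, rho = 0.33, adjusted p = 0.259) but 0.07 without KDSH 8 and WTEE 10. Nr3c2 and Sult1a1 had r = -0.73 (permutation adjusted p = 0.0310, rho = -0.43, adjusted p = 0.205) and -0.20 without the same mice. Nr3c1 and Tsc22d3, the strongest negative pair with Nr3c1, had r = -0.70 (permutation adjusted p = 0.00945, rho = -0.62, adjusted p = 0.0523) and -0.50 without them. Per1 and Zbtb16 had r = 0.65 (permutation adjusted p = 0.0417, rho = 0.43, adjusted p = 0.182) and 0.47 without KDSH 18 and WTEE 10. Over the 20 pairs that passed, 7 kept an absolute r over 0.5 without the 2 mice farthest for their first gene, and all 20 kept their sign. By Spearman's rho 6 of them passed.

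Without WTSH mouse 5 and KDSH mouse 8, 0 of the 45 pairs had a permutation adjusted p under 0.05 and 11 had an unadjusted p under 0.05, against 24 with all 21 mice. With WTEE mouse 10 also left out, 0 of 45 passed, 6 had an unadjusted p under 0.05, and the smallest adjusted p was 0.291. In these 18 mice r ran from -0.64 (Nr3c1 and Fkbp5) to 0.67 (Sgk1 and Tsc22d3), the median over the 28 pairs of induced genes was 0.32, and 18 of the 20 pairs kept their sign. Of single mice, the number of pairs passing rested most on KDSH mouse 8, being 1 without it alone, against 20 with all 21 mice. It was 11 without WTSH mouse 5 alone and nearly as low without WTEE mouse 16 alone, but 21 without WTEE mouse 10 alone.

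**Figure D4:**
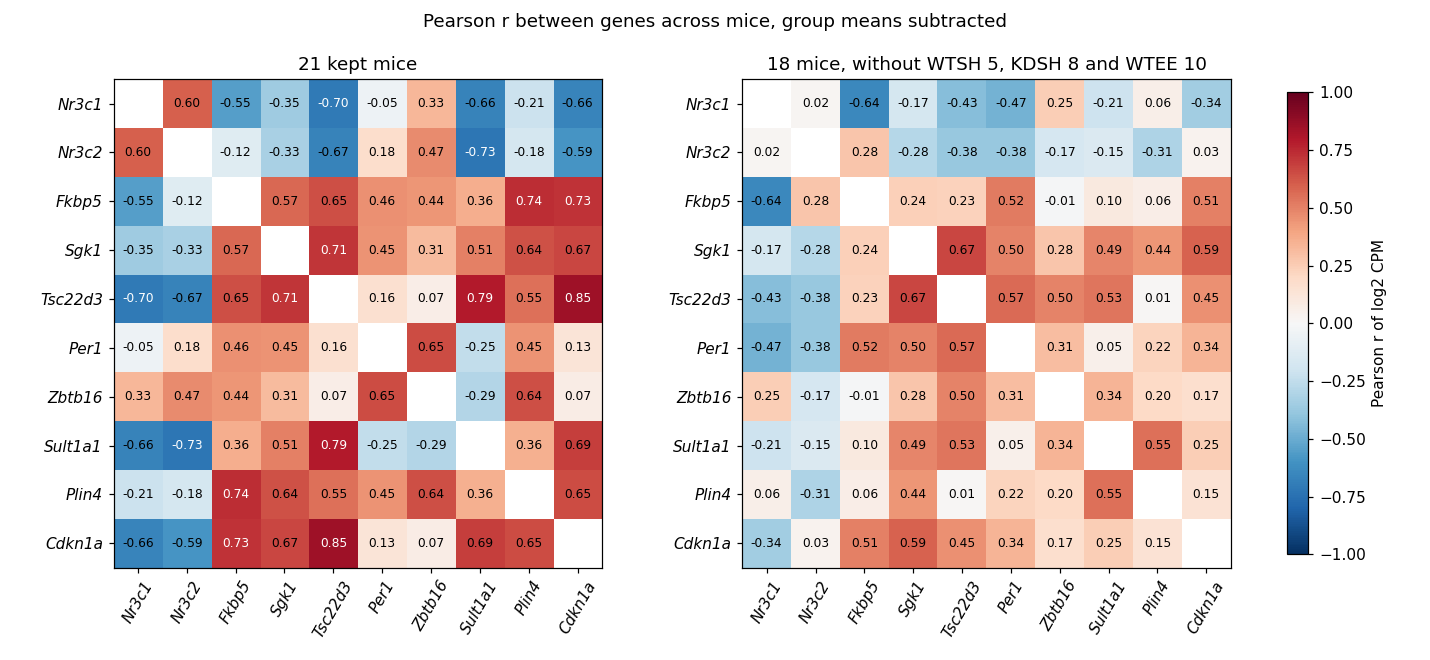
Pearson r of log2 CPM between each pair of the 10 genes, group means subtracted, over 21 mice (left) and over 18 mice without WTSH 5, KDSH 8 and WTEE 10 (right). The block of positive values among Fkbp5, Sgk1, Tsc22d3, Plin4 and Cdkn1a on the left is paler on the right, where Fkbp5 and Plin4 fall from 0.74 to 0.06.

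Many other genes also covaried between these mice. An absolute r over 0.5 was found with 35.4% of all genes tested for Nr3c1, 33.4% for Nr3c2, 40.2% for Zbtb16, 36.3% for Sult1a1 and 23.6% for Per1, but with 13.5% for Tsc22d3, 9.13% for Fkbp5, 8.43% for Cdkn1a, 6.62% for Plin4 and 4.94% for Sgk1. Against these shares, 7 of the 9 other genes described here reached it for Tsc22d3 and for Cdkn1a and 5 of 9 for Fkbp5, Plin4, Sgk1, Nr3c1 and Sult1a1, while 4 of 9 did so for Nr3c2, 2 of 9 for Zbtb16 and 1 of 9 for Per1. After the first 2 principal components, which held 27.8% and 14.6% of the variance of all genes, were regressed out, 29 of the 45 pairs passed, of which 15 were among the 20 that passed before.

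For each gene the 3 most similar genes were taken by r over the 21 mice among the 14995 genes whose mean count reached 50. Tsc22d3 was closest to Gjb6, a gap junction gene of astrocytes, at r = 0.95 (0.79 over the 18 mice without mice 5, 8 and 10), Klf15, a transcription factor gene, at 0.88 (0.72), and Sesn1, a p53 target gene, at 0.87 (0.71). Fkbp5 was closest to Mfsd2a, a lipid transporter gene of the blood-brain barrier, at 0.90 (0.76), Tollip at 0.88 (0.85) and Pgbd5 at 0.88 (0.92). Zbtb16 was closest to Klf9, also a transcription factor gene, at 0.96, but over the 18 mice r was 0.58, and Fgd6 and Lonrf3 followed at 0.95 each (0.66 and 0.64). Plin4 was closest to Hif3a at 0.91 (0.48), Hdac4 at 0.90 (0.58) and Rin2 at 0.89 (0.64).

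Sgk1 was closest to Plekhf1 at 0.90 (0.86), Ppp1r3g at 0.84 (0.81) and Slc2a1, the glucose transporter gene of the blood-brain barrier, at 0.83 (0.77). Cdkn1a was closest to Mfsd2a at 0.87 (0.70), Tsc22d3 at 0.85 (0.45) and Gjb6 at 0.85 (0.43), and Cdkn1a with Tsc22d3 was the only case in which a gene described here was among another's closest 3. Sult1a1 was closest to Ly6c1, an endothelial marker, at 0.92 (0.76), Erp44 at 0.92 (0.82) and Ogn at 0.91 (0.85). Per1 was closest to Ulk1 at 0.92 (0.87), Chrm4 at 0.92 (0.89) and Brd3 at 0.89 (0.85). Nr3c1 was closest to Fam135a at 0.93 (0.92), Acer3 at 0.91 (0.84) and Exoc2 at 0.89 (0.87), and Nr3c2 to Zeb2 at 0.92 (0.80), Cyfip1 at 0.91 (0.70) and Jph1 at 0.90 (0.77). These likenesses are descriptions over mice that share the same few libraries at their extremes. Klf9, Klf15, Hif3a and Mfsd2a also belong to the list of other glucocorticoid-induced genes described next, and Ly6c1 to the endothelial markers.

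Genes that act around the receptors were followed as 7 lists, and 0 of their genes were called in any comparison. Of the 10 receptor chaperone genes, 0 had an unadjusted p under 0.05 with enrichment (genotypes averaged), with a median change of 0.02 beside 0.01 for all genes, and the smallest p belonged to Hsp90aa1, the inducible HSP90, at 0.09 (SE 0.04, edgeR adjusted p = 0.284), followed by the co-chaperone gene Ptges3 at 0.14 (SE 0.08, adjusted p = 0.333). Of the 3 steroid enzyme genes tested out of 4, 0 did. Hsd11b1, which regenerates corticosterone inside cells, differed by 0.07 (SE 0.08) and Srd5a1, which reduces steroids, by 0.11 (SE 0.07). At this level 18.9% of all genes passed in this comparison. Of the 12 receptor coregulator genes, 5 had an unadjusted p under 0.05, all with lower values in enriched mice, and the median of the list was -0.16. The smallest p values were those of Nrip1, a corepressor gene, at -0.19 (SE 0.07, edgeR adjusted p = 0.220) and Ncoa3, a coactivator gene, at -0.22 (SE 0.09, adjusted p = 0.240).

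Of 24 other glucocorticoid-induced genes, 4 had an unadjusted p under 0.05 with higher values and 1 with lower values in enriched mice, a share near the 18.9% of all genes, with a median change of 0.06. The smallest p values were those of Per2, a clock gene, at -0.50 (SE 0.12, edgeR adjusted p = 0.174) and Cebpd, a transcription factor gene, at 0.34 (SE 0.10, adjusted p = 0.196). Of 14 clock genes, 0 were higher and 3 lower at that level, again a share near 18.9%, Per2 again and Per3 at -0.26 (SE 0.08, edgeR adjusted p = 0.198) among them. Of 11 p53 targets 1 was higher, Phlda3 at 0.35 (SE 0.10, edgeR adjusted p = 0.189), with Bbc3 next at 0.11 (SE 0.07, adjusted p = 0.354). Of 10 immediate early genes, which neuronal activity induces, 1 was lower, Fosb at -0.32 (SE 0.13, edgeR adjusted p = 0.232), with Ier2 next at 0.29 (SE 0.16, adjusted p = 0.304). With housings averaged, 2 of the 24 other induced genes had an unadjusted p under 0.05, both lower in MSK1 KD mice, beside 1.9% of all genes, Errfi1 at -0.15 (SE 0.05, edgeR adjusted p = 0.9996) and Dusp1 at -0.29 (SE 0.13).

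Each gene was also set against the summed level of 16 lists between mice, with adjustment over 160 relations, of which 23 had a permutation adjusted p under 0.05 by Pearson r and 3 by Spearman's rho. The summed other glucocorticoid-induced genes ran with 5 of the 8 induced genes, with r from 0.64 (Sgk1) to 0.74 (Tsc22d3), and against Nr3c1 with r = -0.61 (permutation adjusted p = 0.0455, rho = -0.65, adjusted p = 0.0623, and -0.55 without KDSH 8 and WTEE 10). The receptor chaperones ran against Nr3c1 with r = -0.80 (permutation adjusted p = 0.0171, rho = -0.75, adjusted p = 0.0443, and -0.60 without those mice). Per1 ran with the other clock genes, r = 0.74 (permutation adjusted p = 0.0343, rho = 0.68, adjusted p = 0.0623, and 0.75 without KDSH 18 and WTEE 10). Zbtb16 ran with the receptor coregulators, r = 0.87 (permutation adjusted p = 0.0343, rho = 0.71, adjusted p = 0.0623), but r was 0.41 without WTEE 10 and WTSH 5.

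Among cell type markers, Sult1a1 stood apart from the other genes in passing with the endothelial markers, r = 0.78 (permutation adjusted p = 0.0112, rho = 0.65, adjusted p = 0.0623, and 0.75 without KDSH 8 and WTEE 10), with the microglia markers at 0.64 and with the meningeal fibroblast markers at 0.61. None of the other 9 genes passed with any of the 9 marker lists, neuron, oligodendrocyte, astrocyte, mural, choroid plexus and blood markers included, and whether Sult1a1 differs from them in this was not tested. Over the 18 mice without WTSH 5, KDSH 8 and WTEE 10, 5 of the 160 relations passed, among them Sult1a1 with the endothelial markers (r = 0.78, permutation adjusted p = 0.0308) and with the other induced genes (r = 0.75, permutation adjusted p = 0.0308), and Per1 with the clock genes (r = 0.71, permutation adjusted p = 0.0486).

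**Figure D5:**
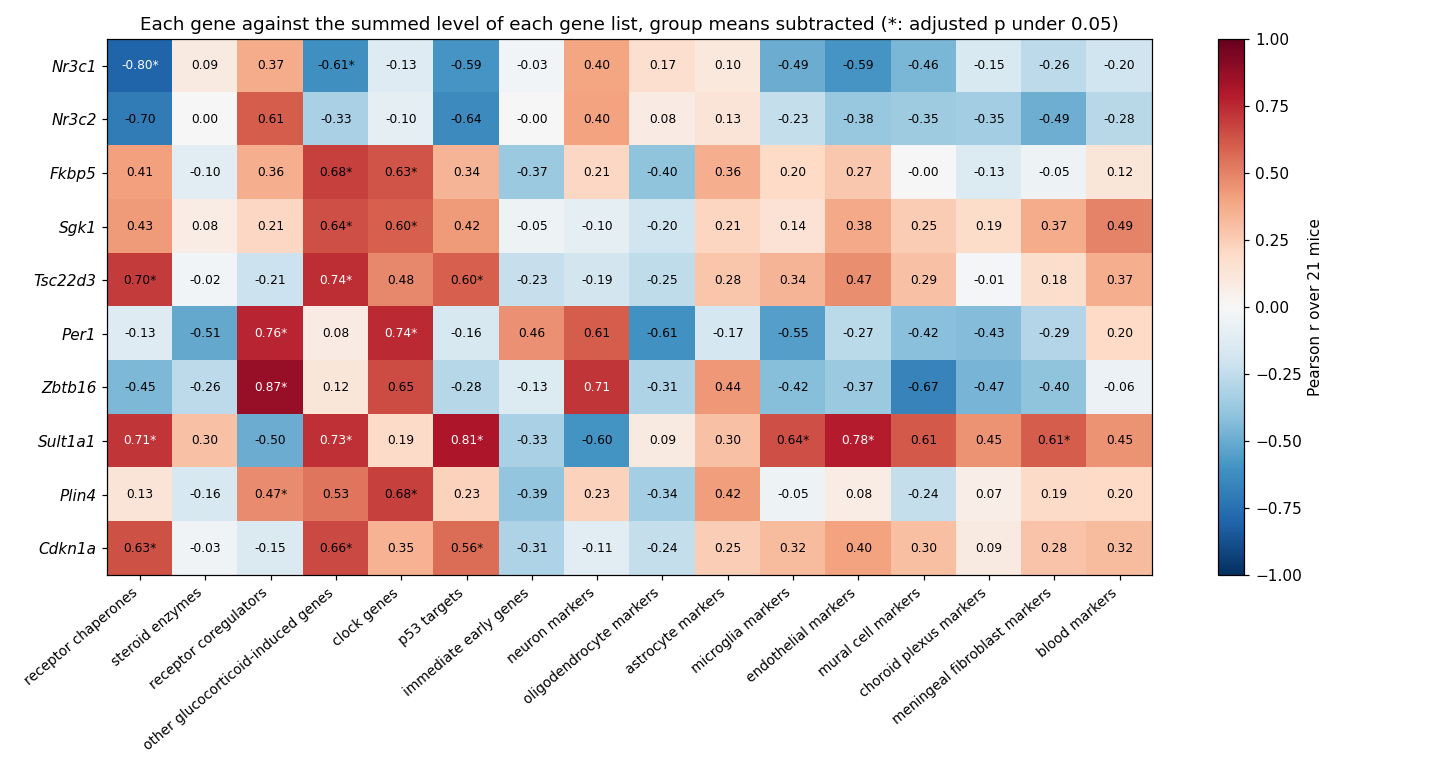
Pearson r over 21 mice between each of the 10 genes (rows) and the log2 summed CPM of each of 16 gene lists (columns), group means subtracted, with an asterisk where the permutation p adjusted over 160 relations is under 0.05. Sult1a1 has 6 asterisks, the most of the 10 genes, and Nr3c2 has 0.

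The left-out libraries were standard-housed, and 2 of them had high levels of induced genes. On a scale set over all 24 libraries, WTSH mouse 7 held 844 normalised counts of Plin4, 3.57 times the median of the kept WTSH mice, 5265 of Sgk1 (1.64 times), 4646 of Zbtb16 (1.79 times) and 3479 of Fkbp5 (1.55 times). KDSH mouse 6 held 616 of Plin4, 3.05 times the median of the kept KDSH mice, 787 of Cdkn1a (1.99 times), 3908 of Tsc22d3 (1.73 times) and 4091 of Sgk1 (1.64 times), and it was below all kept KDSH mice for Nr3c1, at 3406, and for Nr3c2, at 5983. WTSH mouse 4 held 310 of Plin4, 2915 of Fkbp5, 2503 of Tsc22d3 and 368 of Cdkn1a, and 9222 of Nr3c2, the highest of the 24 mice. KDSH mouse 6 was high for the 6 pituitary hormone genes as mouse 8 was, with 20269 normalised counts, while WTSH mouse 7 held 194. With all 24 libraries, 26 of the 45 pairs had a permutation adjusted p under 0.05, and 0 of the 10 genes were called in any comparison.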

How the data were processed

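Poly(A) RNA of the hippocampus was sequenced as read pairs, 1 library per mouse. The authors checked reads with FastQC 0.11.3, trimmed them with Skewer, aligned them to GRCm38 with STAR 2.5 and counted unique pairs per gene symbol with HTSeq 0.6.1p1 without regard to strand. The deposited values are these raw counts, so copies made by PCR are included. Groups came from the labels, and no mouse number occurs in 2 groups. The 10 genes and all lists were chosen with earlier results of these data known, and the pituitary list was added after seeing the data.

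All 24 files list 49568 symbols. Genes passing edgeR's default filter (20187) were fitted after TMM normalisation in edgeR 4.0.16 (R 4.3.3) and compared by its quasi-likelihood test, over 21 libraries with 4 group means, and p-values were adjusted by Benjamini-Hochberg over all of them. Tests were two-sided. P-values measure the spread between mice, from which a spread between cages could not be separated. A gene was called where the adjusted p was under 0.05 and the log2 fold change passed 0.38 in either direction. RPKM used exon lengths of GENCODE M21. Correlations used log2 CPM with a prior count of 2. Named genes were the 10 genes, in each list described the 2 genes with the smallest p, the 3 genes most like each of the 10, and Rps6ka5. Gh falls outside this rule and was chosen after its values were seen, as were the fits without WTSH 5, KDSH 8 and WTEE 10 and without the first 2 principal components. The procedure was tested on simulated data. Alternatives were DESeq2 1.42.0, RLE size factors, other filters, no fold threshold, all 24 libraries, a robust fit, covariates for structural RNA and choroid plexus markers, leaving out each library, and for the correlations the variance stabilizing transformation and no centring.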

Additional observations from a re-analysis of the deposited data

Results flagged for a closer look

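In 6 of the 40 sets of values formed by a gene in a group, a single mouse stood far from the rest of its group by Dixon's criterion, which chance alone would meet in about 1 of 20 sets. Zbtb16 had 3 of them, WTSH mouse 5 at 4514 normalised counts (next highest 2679), KDSH mouse 8 at 4488 (next highest 3107) and WTEE mouse 10 at 785 (next lowest 2345). KDSH mouse 8 also stood apart for Plin4, at 1016 (next highest 220), and for Cdkn1a, at 807 (next highest 444). WTEE mouse 10 also stood apart for Nr3c1, at 3411 (next lowest 4054).

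Of the 30 values of the 10 genes in the 3 libraries that the study left out, 8 lay above every kept mouse of their own group on a scale set over 24 libraries. In WTSH mouse 7 these were Sgk1 at 5265 normalised counts, Zbtb16 at 4646 and Plin4 at 844. In KDSH mouse 6 they were Sgk1 at 4091, Tsc22d3 at 3908 and Cdkn1a at 787. In WTSH mouse 4 they were Nr3c2 at 9222 and Per1 at 5536.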

How the results depend on the processing

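No gene of the 10 was called in any of the 7 comparisons under any alternative, leave-one-out fits included (0 to 0). DESeq2 called other genes, 14 between KDEE and KDSH, 118 between KDEE and WTEE, 41 for enrichment averaged over genotypes and 20 for the interaction, where edgeR called 0, 0, 1 and 0. Leaving out 1 library at a time, the number of gene pairs correlated between mice ran from 1 (without KDSH mouse 8) to 21, being 11 without WTSH mouse 5 and 12 without WTEE mouse 16, and the number of gene and list relations from 2 (without WTEE mouse 10) to 24. Without WTSH 5 and KDSH 8 these numbers were 0 and 8, and without WTEE 10 as well 0 and 5. With the first 2 principal components regressed out, 14 relations with lists passed, against 23. Without the 3 mice the sign of r turned in 8 of the 45 pairs, 2 of them among the 20 that had passed. The sign turned for Nr3c2 and Cdkn1a (0.032) and Fkbp5 and Zbtb16 (-0.0101) without the 3 mice, for Nr3c1 and Zbtb16 (-0.59) and Zbtb16 and Sult1a1 (0.66) without the components, and for Zbtb16 and Sult1a1 without WTEE 10, where leaving out 1 library at a time gave r from -0.46 (without WTSH 5) to 0.67. Other alternatives kept both numbers within 1.5 times, at 19 to 26 pairs and 16 to 27 relations. The causes were not tested. No paired analysis was possible because no mouse number occurs in more than 1 group. All 10 genes passed the filter on low counts, and with 4 to 6 mice a group the interval of Plin4 between WTEE and WTSH ran from -1.18 to 0.72.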
